A study of Mus musculus with 36 samples.

Results

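The collagen genes of the mouse were followed here through 12 RNA-seq libraries of cells with and without the histone methyltransferase MLL4. Members were all genes whose symbol is Col, a type number, the letter a and a chain number, and the rule used no measured value. It found 44 genes of the 24284 in the deposited tables. Of these, 11 encode chains of fibrillar collagens, 6 encode chains of the basement membrane collagen IV and 27 encode chains of other types. The last set held 6 beaded filament genes (type VI), 1 anchoring fibril gene (type VII), 3 short-chain network genes (types VIII and X), 9 FACIT genes (fibril-associated collagens with interrupted helices), 4 transmembrane genes, 2 multiplexin genes and 2 remaining genes.

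Collagens are the main structural proteins of the extracellular matrix. Each molecule is built of chains wound into a helix, and many types need chains from different genes, so that collagen I is made of the products of Col1a1 and Col1a2 and collagen IV mostly of those of Col4a1 and Col4a2. Fibrillar collagens are made in bulk by fibroblasts, collagen IV lies in the basement membranes under epithelia and around endoderm, and FACIT, multiplexin and transmembrane collagens sit on or between these networks.

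All cells lacked MLL3 (the gene Kmt2c), whichever group they belonged to. DKO cells were MLL3-/-;MLL4-/- and had also lost MLL4 (the gene Kmt2d), which with MLL3 places methyl groups on histone H3 lysine 4 at enhancers. The f/f cells (ff in the plots) were MLL3-/-;MLL4flox/flox and kept a conditional MLL4 allele. Each genotype was measured in 4 states, namely embryonic stem cells (ESC), embryoid bodies after 4 days of suspension culture without LIF (EB), embryonic fibroblasts (MEF), and fibroblasts at day 20 after lentiviral Oct4, Sox, Klf4 and c-MYC (D20). The labels give a growth protocol for ESC on irradiated embryonic fibroblast feeders with LIF, and they mention removal of feeders for the ChIP samples alone. They do not say how many clones or embryos stand behind a group. ESC and EB groups had 2 libraries each, and MEF and D20 groups had 1 each. Replicate 1 of the ESC and EB groups was deposited as reads and RPKM (reads scaled by transcript length and depth) and replicate 2 and the MEF and D20 libraries as FPKM (fragments scaled likewise per gene). The replicates were counted differently, so levels are compared only within the same replicate number, and a pair of values below gives replicate 1 in RPKM and then replicate 2 in FPKM.

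Reads counted in genes lay between 11384239 (replicate 2 of f/f EB) and 39362732 (DKO MEF). Kmt2d stood at 8.89 and 10.7 in DKO ESC against 13.5 and 18.7 in f/f ESC, and at 23.5 FPKM in DKO MEF against 14.4 FPKM in f/f MEF; values over the whole gene do not isolate the deleted part and so do not check the labels. Of 7 pluripotency markers, none was below 1 in any ESC or EB library, and their summed level was 10.5 FPKM in DKO D20 and 39.2 FPKM in f/f D20 against 7.31 FPKM in DKO MEF and 7.52 FPKM in f/f MEF. The D20 libraries, titled as iPSC in the labels, were thus far below ESC, in which the sum was 1817 or more. The sum was higher in f/f D20 than in f/f MEF. Pou5f1 stood at 19.8 FPKM against 0.120 FPKM, Sox2 at 9.36 FPKM against 0.127 FPKM and Dppa5a at 4.07 FPKM against 0. Oct4 (Pou5f1) and Sox were among the delivered factors, and these values do not separate vector reads from those of the cells' own genes. Nanog went the other way, at 5.49 FPKM in f/f D20 against 7.26 FPKM in f/f MEF. Zfp42, Esrrb and Utf1 did not pass 0.310 FPKM in f/f D20. The sums of both MEF libraries and of DKO D20 were almost all Nanog (9.68 FPKM in DKO D20). The 15 fibroblast or feeder markers were all above 0 apart from 1 at 0 in replicate 1 of f/f EB, and they summed to 3271 FPKM in DKO MEF and 4298 FPKM in f/f MEF. In ESC and EB the summed level was 215 and 694 in DKO ESC against 225 and 783 in f/f ESC, and 93.3 and 151 in DKO EB against 262 and 380 in f/f EB. In these bulk samples, fewer cells of a type and less RNA per cell cannot be told apart.

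Promoter sequences from RefSeq (build GRCm38.p6) were matched to 35 of the 44 genes. The 250 bases before an annotated start are shown for Col1a2 and Col3a1, which were the most abundant collagens of DKO MEF and DKO D20, and for Col18a1, which led in most ESC and EB libraries. Capitals mark the searched motifs, namely the CCAAT box (CCAAT), the GC box (GGGCGG) and the TATA box (TATAAA), searched on both strands; a match is a description and not a site.
Col1a2 (chr6:4505368-4505617, plus strand): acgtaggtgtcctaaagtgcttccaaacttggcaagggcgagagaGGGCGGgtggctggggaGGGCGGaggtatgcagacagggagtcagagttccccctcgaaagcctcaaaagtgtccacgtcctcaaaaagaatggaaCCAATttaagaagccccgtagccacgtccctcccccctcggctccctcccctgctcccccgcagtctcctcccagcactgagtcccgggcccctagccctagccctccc
Col3a1 (chr1:45311288-45311537, plus strand): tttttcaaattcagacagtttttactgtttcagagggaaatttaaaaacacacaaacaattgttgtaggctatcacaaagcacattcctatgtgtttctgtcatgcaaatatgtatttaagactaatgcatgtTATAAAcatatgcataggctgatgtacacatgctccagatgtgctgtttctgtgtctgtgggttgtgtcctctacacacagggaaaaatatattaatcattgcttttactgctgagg
Col18a1 (chr10:77166531-77166780, minus strand): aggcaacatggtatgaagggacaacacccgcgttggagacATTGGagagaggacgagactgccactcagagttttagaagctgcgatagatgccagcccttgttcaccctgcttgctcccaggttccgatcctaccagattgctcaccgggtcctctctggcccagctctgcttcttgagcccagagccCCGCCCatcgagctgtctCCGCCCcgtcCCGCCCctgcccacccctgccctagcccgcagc

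The windows of Col1a2 and Col18a1 each had 62% G and C, against 35.2% in that of Col3a1. Among the 38 collagen promoters in the table, 34.2% held CCAAT, 57.9% the GC box and 13.2% TATAAA on either strand, against 33.8%, 32.7% and 12.4% of all 32851 promoters. Col4a1 and Col4a2 are read in opposite directions from starts at positions 11312826 and 11312805 of chromosome 8, so that the first 22 bases of both transcripts are the 2 strands of the same stretch, shown here because their levels are compared below.
Col4a1 (chr8:11312805-11312826, minus strand): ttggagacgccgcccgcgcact
Col4a2 (chr8:11312805-11312826, plus strand): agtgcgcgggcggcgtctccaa

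Collagens made up a small share of the transcripts of ESC and EB and a larger share of those of fibroblasts. Their summed level was 0.0427% and 0.0877% of all levels in DKO ESC against 0.0441% and 0.0994% in f/f ESC, and 0.0328% and 0.0282% in DKO EB against 0.0392% and 0.0425% in f/f EB. The share was 1.15% in DKO MEF and 1.15% in f/f MEF, and 2.76% in DKO D20 against 3.85% in f/f D20. The genotypes therefore differed little in the collagen total of MEF, while the f/f library held the larger total at D20. Fibrillar chains took 76.3% of the collagen total in DKO MEF against 84.6% in f/f MEF, and 92.8% in DKO D20 against 88.3% in f/f D20. In ESC and EB, between 15.7% and 50.2% of the total was fibrillar.

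**Figure D1:**
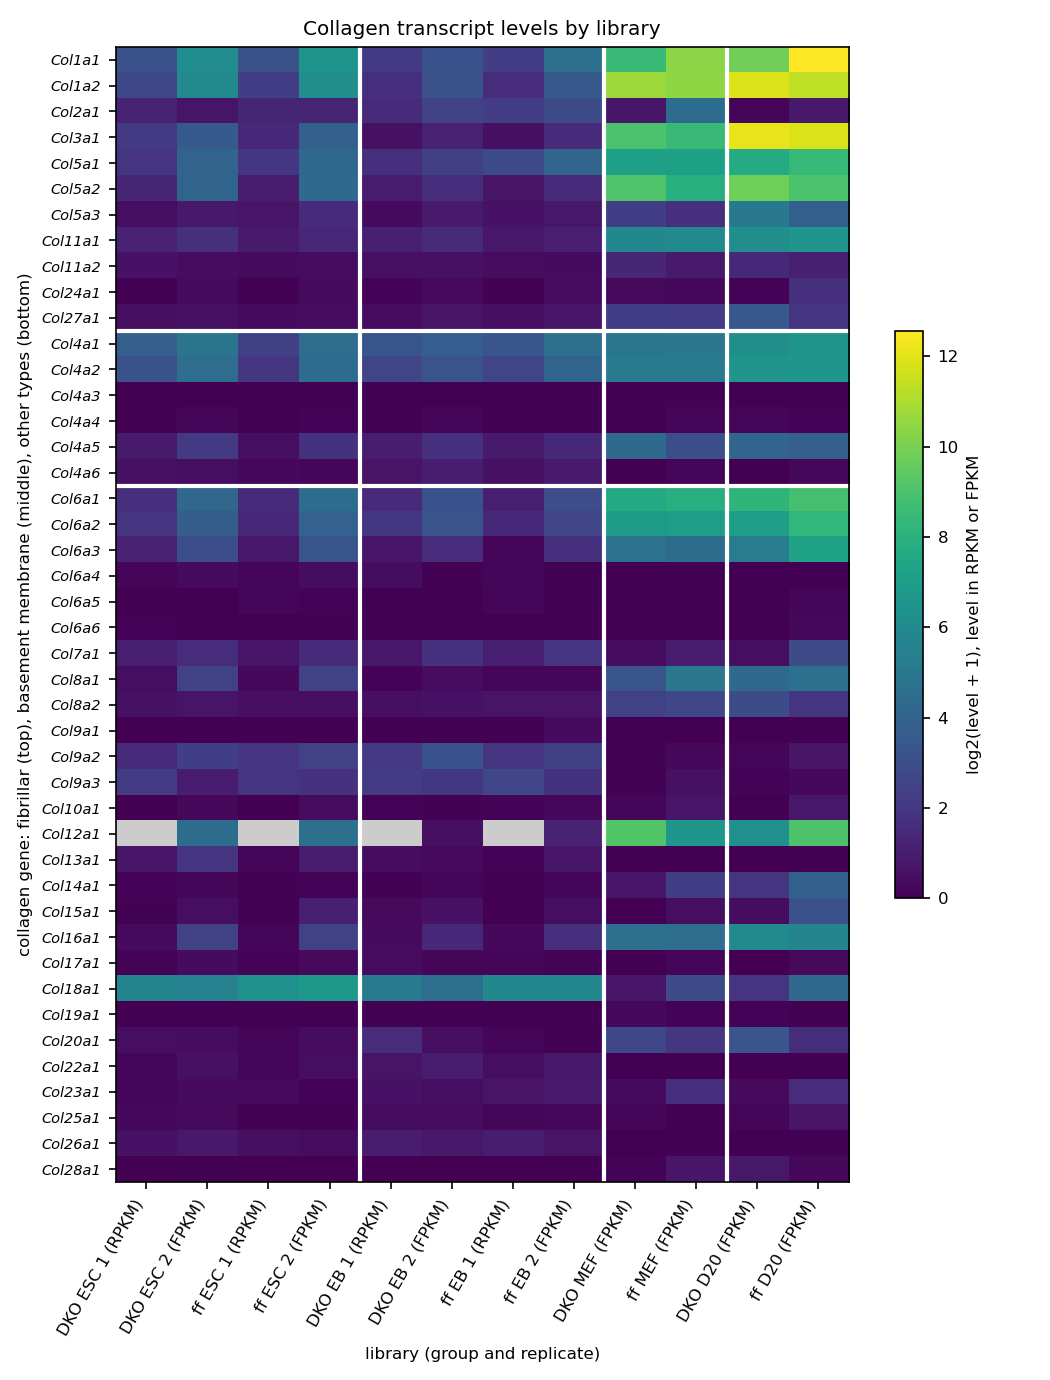
Levels of the 44 collagen genes, as log2(level + 1) with level in RPKM or FPKM (color), in the 12 libraries (columns, ESC, EB, MEF and D20 from left to right, replicate number after the group); white lines part the types and the states, and grey marks Col12a1 where no transcript was matched. Col1a1, Col1a2 and Col3a1 are brightest in MEF and D20, and Col18a1 is brighter in ESC and EB than in MEF and D20.

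Of the 44 genes, 13 stayed below 1 in every library, 12 reached between 1 and 10, and 19 reached 10 or more in at least 1 library. Those below 1 throughout included Col4a3 and Col4a4, chains of the kidney and lung form of collagen IV, and Col10a1, the collagen of hypertrophic cartilage, whose highest level was 0.779 FPKM. Of the 12 in between, Col9a2 and Col9a3, cartilage chains of collagen IX, were highest in EB, at up to 7.84 and 5.40. For ESC and EB, 19 members averaged 1 or more across the 8 libraries and entered the test (7 fibrillar, 3 basement membrane, 9 other). Of the remaining 25, Col12a1 was left out because it had no matched transcript for replicate 1, whatever its level, and the others did not pass this filter.

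In ESC, no collagen gene passed the test between DKO and f/f (limma with Benjamini-Hochberg adjustment, threshold 0.05), where 4.24% of all 12466 genes did. At an unadjusted p under 0.05 there were 2 members of 19, against 22.0% of all genes, and edgeR called 0 and DESeq2 1, which was Col18a1. The median difference over the 19 members was 0.07 on the log2 scale, beside 0.02 over all genes, and 12 members were higher and 7 lower in DKO. The sign of this median turned on single libraries, since it was -0.46 without f/f ESC replicate 1, -0.09 without DKO ESC replicate 2 and 0.44 without f/f ESC replicate 2. In EB, 0 of 19 members passed the same limma test, where 4.44% of all genes did. At an unadjusted p under 0.05 there were again 2 of 19, against 21.2% of all genes, and edgeR called 0 and DESeq2 2, which were Col5a1 and Col18a1. The median over the members was -0.13, beside -0.01 over all genes, and its sign also turned, at 0.31 without DKO EB replicate 2 and 0.12 without f/f EB replicate 1, but -0.49 without DKO EB replicate 1. For the difference between the EB and ESC effects (the interaction), limma, edgeR and DESeq2 called 0 members, as limma did for 0% of all genes, and 3 of 19 had an unadjusted p under 0.05 against 13.7% of all genes.

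**Figure D2:**
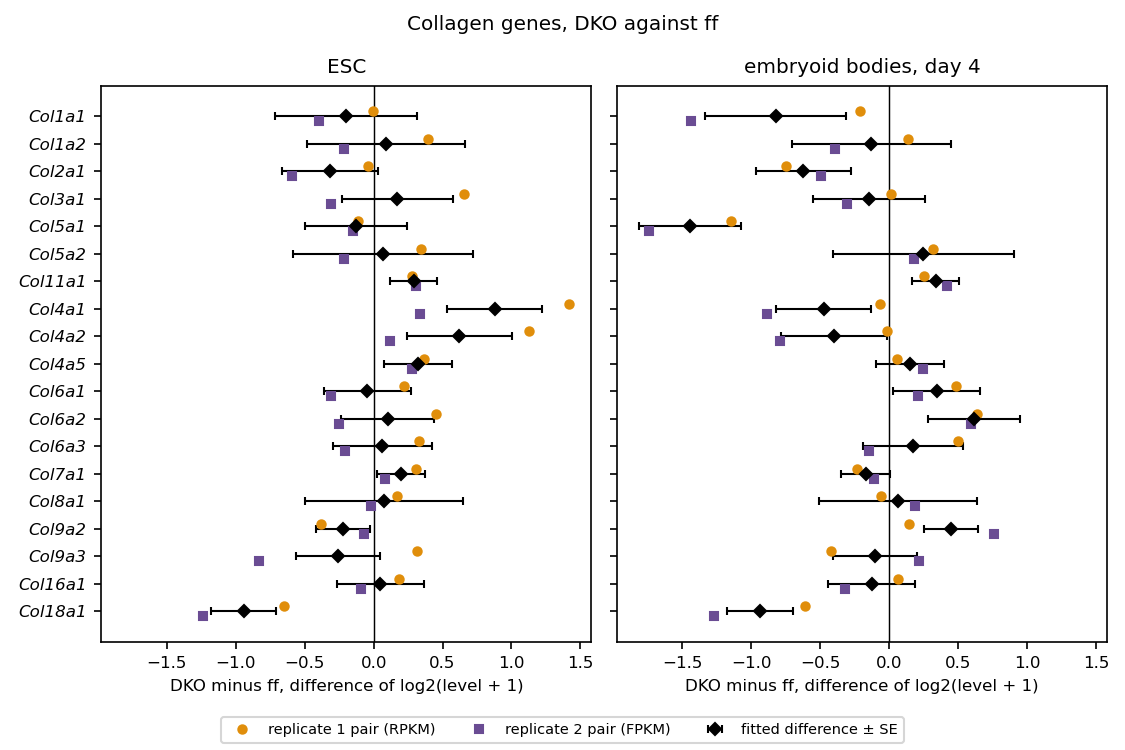
Difference of log2(level + 1), DKO minus f/f, for the 19 tested collagen genes in ESC (left) and EB (right); black diamonds are the fitted difference with its SE, circles the replicate 1 pair and squares the replicate 2 pair. Col18a1 lies at -0.94 in both panels and Col5a1 at -0.13 in ESC and -1.45 in EB.

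Col18a1 encodes the multiplexin chain whose end fragment is endostatin, and it was the leading collagen of 7 of the 8 ESC and EB libraries. It stood at 49.7 and 43.0 in DKO ESC against 78.4 and 102.7 in f/f ESC. In bodies it stood at 37.0 and 22.4 in DKO EB against 56.9 and 55.4 in f/f EB. All 4 DKO libraries lay below their f/f partners, with a difference of -0.94 ± 0.24 (SE, n = 2 against 2) in ESC (limma adjusted p = 0.0842) and -0.94 ± 0.24 in EB (limma adjusted p = 0.0865). Neither passed the threshold, but the ESC difference did without DKO EB replicate 1 or 2 (adjusted p = 0.0415 and 0.0402). Col18a1 was also lower in DKO at the fibroblast stages, at 0.659 FPKM in DKO MEF against 6.28 FPKM in f/f MEF and 2.68 FPKM in DKO D20 against 18.6 FPKM in f/f D20.

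Col5a1 and Col5a2 encode chains of collagen V, which regulates the width of collagen I fibrils. Col5a1 stood at 2.86 and 15.8 in DKO ESC against 3.17 and 17.7 in f/f ESC, while the DKO EB libraries held 2.21 and 4.16, against 6.10 and 16.3 in f/f EB. In EB both DKO libraries were below both f/f partners, by -1.45 ± 0.37 (limma adjusted p = 0.0888), which did not pass. Its partner Col5a2 stood at 1.58 and 15.8 in DKO ESC against 1.03 and 18.5 in f/f ESC, while the DKO EB libraries held 0.947 and 2.14, against 0.559 and 1.78 in f/f EB. Col5a2 was higher in both DKO EB libraries, but its fitted difference was 0.25 ± 0.65 (limma adjusted p = 0.863), so its direction is not settled. Col5a3, a further type V chain, stayed at or below 1.94 in ESC and EB and was not tested there.

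The fitted differences of the basement membrane pair had opposite signs in ESC and EB, and none passed. Col4a1 stood at 13.0 and 27.8 in DKO ESC against 4.24 and 21.8 in f/f ESC, while the DKO EB libraries held 8.47 and 12.5, against 8.93 and 24.0 in f/f EB. Its difference was 0.88 ± 0.35 in ESC (limma adjusted p = 0.208) and -0.48 ± 0.35 in EB (limma adjusted p = 0.481), and the interaction was -1.35 ± 0.49 (limma adjusted p = 0.313). Col4a2 stood at 7.54 and 21.8 in DKO ESC against 2.91 and 20 in f/f ESC, while the DKO EB libraries held 5.18 and 8.44, against 5.24 and 15.3 in f/f EB. In ESC the replicate 1 pair carried most of this difference. Col4a5, an X-linked chain of collagen IV, stood at 0.850 and 3.36 in DKO ESC against 0.435 and 2.60 in f/f ESC, while the DKO EB libraries held 0.978 and 2.22, against 0.900 and 1.72 in f/f EB. Of 10 tested markers of parietal, visceral or primitive endoderm, cells that lay down basement membrane, 5 passed as lower in DKO EB, where 3.61% of all genes did (median -0.83, beside -0.01 over all genes). Of these markers 0 passed without either f/f EB library, 1 without DKO EB replicate 1, and 3 without DKO EB replicate 2 or either f/f ESC library; their part in the values of Col4a1 and Col4a2 was not tested.

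No chain of collagens I and III passed between genotypes in ESC, and the SE was larger than each fitted difference. These were -0.20 ± 0.51 for Col1a1, 0.09 ± 0.58 for Col1a2 and 0.17 ± 0.41 for Col3a1. Col1a1, the major chain of the commonest fibrillar collagen, stood at 7.78 and 68.0 in DKO ESC against 7.82 and 89.7 in f/f ESC, while the DKO EB libraries held 3.35 and 7.89, against 4.04 and 23.1 in f/f EB. Col1a2 stood at 5.66 and 62.0 in DKO ESC against 4.06 and 72.2 in f/f ESC, while the DKO EB libraries held 2.33 and 7.61, against 2.03 and 10.3 in f/f EB. Col3a1, whose homotrimer makes the fine fibrils of soft tissue, stood at 3.36 and 10.7 in DKO ESC against 1.77 and 13.5 in f/f ESC, while the DKO EB libraries held 0.466 and 1.25, against 0.453 and 1.79 in f/f EB. The signs of the 2 replicate pairs differed for Col1a2 and Col3a1 at each stage. Col12a1, a FACIT on collagen I fibrils, was read in replicate 2 alone, at 20.6 FPKM in DKO ESC against 23.6 in f/f ESC and 0.437 in DKO EB against 1.29 in f/f EB. Over the 11 tested fibroblast or feeder markers, 2 passed as lower in DKO EB and 0 as higher, where 3.61% and 0.826% of all genes did. Their median was -0.82 beside -0.01 over all genes, and -0.01 without DKO EB replicate 2, and 0 passed without either f/f EB library and 1 without either DKO EB library; their part in the collagen values of EB was not tested.

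Between EB and ESC, 1 collagen gene changed, Col3a1, which fell in f/f EB; Col1a1 and Col1a2 had differences of like size that did not pass. Its difference, EB minus ESC, was -1.65 ± 0.41 (limma adjusted p = 0.0496, n = 2 against 2, lower in 2 of 2 pairs), the 1 member called of 19, where 12.0% of all genes were called and 3.86% as lower. Its adjusted p was 0.0795 and 0.0792 without DKO ESC replicate 1 and 2, 0.0596 and 0.219 without f/f ESC replicate 1 and 2, and 0.127 and 0.27 without f/f EB replicate 1 and 2, so the call was lost without any of these 6 libraries. Over 16 alternatives the adjusted p lay between 2.13e-09 and 0.468, and edgeR called 3 members and DESeq2 9. In DKO cells limma called 0 of 19 members, where 0.826% of all genes were called, 0.201% as higher and 0.626% as lower, edgeR called 1 (Col3a1) and DESeq2 6. At an unadjusted p under 0.05 there were 8 of 19 members in DKO, against 19.2% of all genes, and 8 of 19 in f/f, against 32.0%. The difference of Col3a1 in DKO cells was -1.97 ± 0.41 (limma adjusted p = 0.0867). Col1a1 was at -1.99 ± 0.51 in DKO and -1.36 ± 0.51 in f/f cells, and Col1a2 at -1.94 ± 0.58 in DKO and -1.72 ± 0.58 in f/f cells, with limma adjusted p between 0.0993 and 0.157 for these 4 differences. Without DKO EB replicate 1 or 2, 3 members passed in f/f cells (Col1a1, Col2a1 and Col3a1), and without DKO EB replicate 1, 1 member (Col1a1) passed in DKO cells. Without DKO ESC replicate 1 or 2, the member that passed in f/f cells was Col2a1.

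Col2a1, the collagen of cartilage that is also made in the early embryo, had differences of the opposite sign that did not pass. It stood at 1.89 and 4.43 in DKO EB against 1.39 and 0.661 in DKO ESC, and at 3.87 and 6.63 in f/f EB against 1.46 and 1.5 in f/f ESC, higher in EB in each pair. The difference, EB minus ESC, was 0.99 ± 0.35 in DKO cells (limma adjusted p = 0.198) and 1.30 ± 0.35 in f/f cells (limma adjusted p = 0.0597). The sum of the fibroblast or feeder markers was lower in EB than in ESC in DKO cells (93.3 and 151 against 215 and 694). In f/f cells it was higher in replicate 1 (262 against 225) and lower in replicate 2 (380 against 783). Vim and Lgals1 made up most of these sums. Fitted marker by marker, 11 of 11 were lower in DKO EB and 8 of 11 in f/f EB than in ESC, and the part of feeder cells in the levels of Col1a1, Col1a2 and Col3a1 was not tested.

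None of the remaining named chains passed the limma test between groups of ESC and EB. Col6a1 and Col6a2, short chains of the beaded filaments around cells, stood at 2.27 and 16.8 and at 2.65 and 11.9 in DKO ESC, against 1.8 and 21.1 and 1.66 and 14.3 in f/f ESC. In bodies Col6a1 was at 1.87 and 8.01 in DKO EB against 1.05 and 6.82 in f/f EB, and Col6a2 at 3.17 and 8.41 in DKO EB against 1.68 and 5.24 in f/f EB. Col6a2 was higher in both DKO EB libraries, by 0.62 ± 0.34 (limma adjusted p = 0.353). Col6a3, the long type VI chain, was at 1.20 and 7.22 in DKO ESC against 0.751 and 8.47 in f/f ESC, while the DKO EB libraries held 0.673 and 2.00, against 0.183 and 2.33 in f/f EB. Col8a1, a network chain of vessel walls, was at 0.367 and 4.39 in DKO ESC against 0.213 and 4.47 in f/f ESC, while the DKO EB libraries held 0.101 and 0.334, against 0.147 and 0.172 in f/f EB. Col11a1, a minor fibrillar chain of cartilage, lay between 0.781 and 2.30 in all 8 libraries. Col16a1 lay between 0.146 and 4.64 and the FACIT Col14a1 did not pass 0.177, so that Col14a1 was not tested.

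In fibroblasts the design holds 1 library per group, so differences between MEF or D20 libraries have no replicate check and no p-value; they are given as the ratio of FPKM, with a confidence interval of 95% that covers counting error only, and a member past 2-fold is one whose log2(FPKM + 1) differed by at least 1. Genes that averaged 1 FPKM or more across these 4 libraries were compared, 26 members among 12281 genes. Between DKO and f/f MEF, 9 of 26 members were past 2-fold, 3 higher and 6 lower in DKO, where 8.89% of all genes were (3.72% higher and 5.17% lower). At D20 there were 12 of 26, 3 higher and 9 lower, where 18.7% of all genes were (8.26% higher and 10.4% lower). The median difference of the 26 members was -0.05 in MEF and -0.35 at D20, beside 0.04 and 0.04 over all compared genes. By type, of the 10 compared fibrillar members 1 was lower and 2 higher at D20, while of the 13 members of other types 8 were lower and 1 higher. The filter left out fibrillar Col24a1, which stood at 0.0718 FPKM in DKO D20 against 2.18 FPKM in f/f D20 (log2 difference -1.57). It kept Col7a1 and Col15a1 through f/f D20 alone (6.63 and 7.79 FPKM), and both count among the 9 lower in DKO D20. It kept Col2a1 through f/f MEF alone (20.4 FPKM), and this gene counts among the 6 lower in DKO MEF. These 3 genes were below 1 FPKM in the other fibroblast libraries. The filter was the same for all compared genes.

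**Figure D3:**
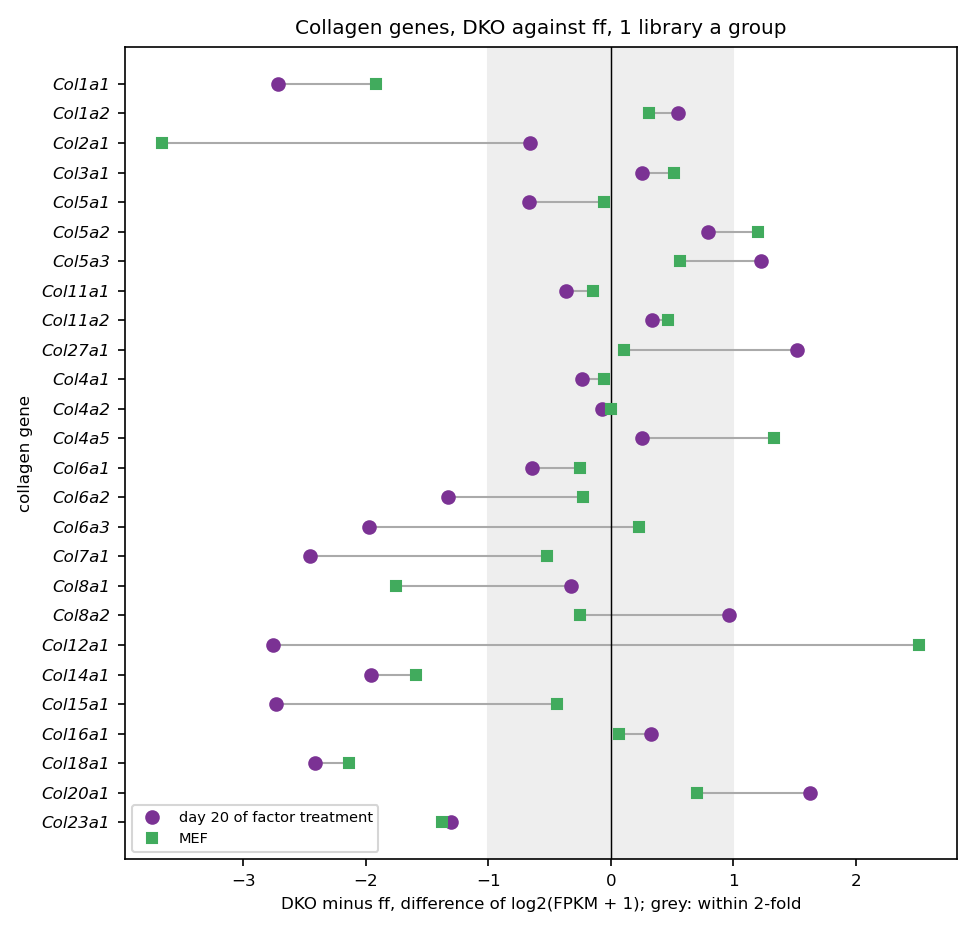
Difference of log2(FPKM + 1), DKO minus f/f, for the 26 compared collagen genes at D20 (circles) and in MEF (squares), 1 library per group; the grey band is within 2-fold. Col12a1 lies at -2.76 at D20 and at 2.52 in MEF, while Col4a1 and Col4a2 lie inside the band.

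Col1a1 was far lower in the DKO libraries, and its partner Col1a2 was not. Col1a1 stood at 355.9 FPKM in DKO MEF against 1345 FPKM in f/f MEF (ratio 0.265, 0.262 to 0.267), and at 921 FPKM in DKO D20 against 6061 FPKM in f/f D20 (ratio 0.152, 0.151 to 0.153). Col1a2 stood at 1720 FPKM in DKO MEF against 1387 FPKM in f/f MEF, and at 3894 FPKM in DKO D20 against 2663 FPKM in f/f D20, a ratio of 1.24 and 1.46. Col3a1 stood at 516 FPKM in DKO MEF against 362 FPKM in f/f MEF, and at 4606 FPKM in DKO D20 against 3851 FPKM in f/f D20. Thus the leading collagen of f/f D20 was Col1a1, and that of DKO D20 was Col3a1.

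Col12a1 turned round between the stages. It stood at 569 FPKM in DKO MEF against 98.6 FPKM in f/f MEF (ratio 5.78, 5.71 to 5.84), and at 78.3 FPKM in DKO D20 against 536 FPKM in f/f D20 (ratio 0.146, 0.144 to 0.148). Of all compared genes, 0.407% were past 2-fold in opposite directions at the 2 stages, and Col12a1 was the member among these 50 genes. The difference between the stages was not tested.

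Among other fibrillar chains, Col2a1 was at 0.692 FPKM in DKO MEF against 20.4 FPKM in f/f MEF and at 0.158 FPKM in DKO D20 against 0.833 FPKM in f/f D20. Col5a2 was the higher in DKO, at 553 FPKM in DKO MEF against 240.2 FPKM in f/f MEF and 894 FPKM in DKO D20 against 514 FPKM in f/f D20. Col5a1 was nearly level in MEF, at 133.7 FPKM in DKO against 138.8 FPKM in f/f, and stood at 212 FPKM in DKO D20 against 338 FPKM in f/f D20. Col5a3 stood at 3.98 FPKM in DKO MEF against 2.36 FPKM in f/f MEF and at 33.2 FPKM in DKO D20 against 13.6 FPKM in f/f D20. Col11a1 differed by less than 2-fold, at 56.6 FPKM in DKO MEF against 62.5 FPKM in f/f MEF and 70.8 FPKM in DKO D20 against 91.6 FPKM in f/f D20.

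The basement membrane pair was nearly level between genotypes in fibroblasts. Col4a1 stood at 29.2 FPKM in DKO MEF against 30.4 FPKM in f/f MEF, and at 76.5 FPKM in DKO D20 against 90.3 FPKM in f/f D20. Col4a2 stood at 34.7 FPKM in DKO MEF against 34.7 FPKM in f/f MEF, and at 91.6 FPKM in DKO D20 against 96.5 FPKM in f/f D20. Col4a5 was past 2-fold in MEF, at 19.6 FPKM in DKO against 7.19 FPKM in f/f, and stood at 15.9 FPKM in DKO D20 against 13.2 FPKM in f/f D20. Col4a6, which neighbours Col4a5 on the X chromosome, did not pass 0.210 FPKM in these 4 libraries.

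The collagens around fibrils and cells were mostly lower in DKO D20. Col6a1 stood at 206 FPKM in DKO MEF against 245 FPKM in f/f MEF and at 299 FPKM in DKO D20 against 468 FPKM in f/f D20. Col6a2 stood at 112 FPKM in DKO MEF against 131 FPKM in f/f MEF and at 124 FPKM in DKO D20 against 315 FPKM in f/f D20. Col6a3 stood at 25.0 FPKM in DKO MEF against 21.1 FPKM in f/f MEF and at 38.0 FPKM in DKO D20 against 152 FPKM in f/f D20. The 3 type VI chains were thus within 2-fold in MEF, and at D20 the ratio was lowest for Col6a3 (0.250) and within 2-fold for Col6a1 (0.639). Col14a1, a FACIT of tendon and skin, stood at 0.677 FPKM in DKO MEF against 4.04 FPKM in f/f MEF and at 2.86 FPKM in DKO D20 against 14.0 FPKM in f/f D20. Col8a1 was past 2-fold in MEF alone, at 8.49 FPKM in DKO MEF against 30.9 FPKM in f/f MEF and 18.4 FPKM in DKO D20 against 23.3 FPKM in f/f D20. Col16a1 was within 2-fold, at 22.8 FPKM in DKO MEF against 21.8 FPKM in f/f MEF and 62.4 FPKM in DKO D20 against 49.5 FPKM in f/f D20.

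Of the compared low members, 5 were past 2-fold between genotypes and are named here after their values were seen. Col7a1, the anchoring fibril chain of skin, was at 0.390 FPKM in DKO D20 against 6.63 FPKM in f/f D20, and Col15a1, the other multiplexin, at 0.321 against 7.79 FPKM. The transmembrane Col23a1 was at 0.281 FPKM in DKO MEF against 2.33 FPKM in f/f MEF and at 0.234 FPKM in DKO D20 against 2.04 FPKM in f/f D20. Col20a1 and Col27a1 were higher in DKO D20, at 8.80 against 2.17 FPKM and at 9.51 against 2.67 FPKM. Of the 15 fibroblast or feeder markers, 9 were past 2-fold lower and 2 higher in DKO D20, where 10.4% and 8.26% of all genes were, and 6 lower and 0 higher in DKO MEF, where 5.17% and 3.72% were. The epithelial markers summed to 0.273 FPKM in DKO D20 against 96.5 FPKM in f/f D20. The part of either in the collagen differences was not tested.

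Between MEF and day 20 most collagens were higher at D20 in both genotypes. In DKO cells 11 of 26 members were past 2-fold higher and 1 lower, where 7.71% of all genes were past 2-fold (4.08% higher and 3.63% lower). In f/f cells 15 were higher and 1 lower, where 12.0% of all genes were past 2-fold (6.31% higher and 5.66% lower). Col7a1 and Col15a1, kept by the filter through f/f D20 alone, are among these 15. The lower one was Col2a1, kept through f/f MEF alone. The median over the members was 0.63 in DKO and 1.20 in f/f cells, beside -0.02 and -0.01 over all compared genes. These comparisons share their libraries with those between genotypes.

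**Figure D4:**
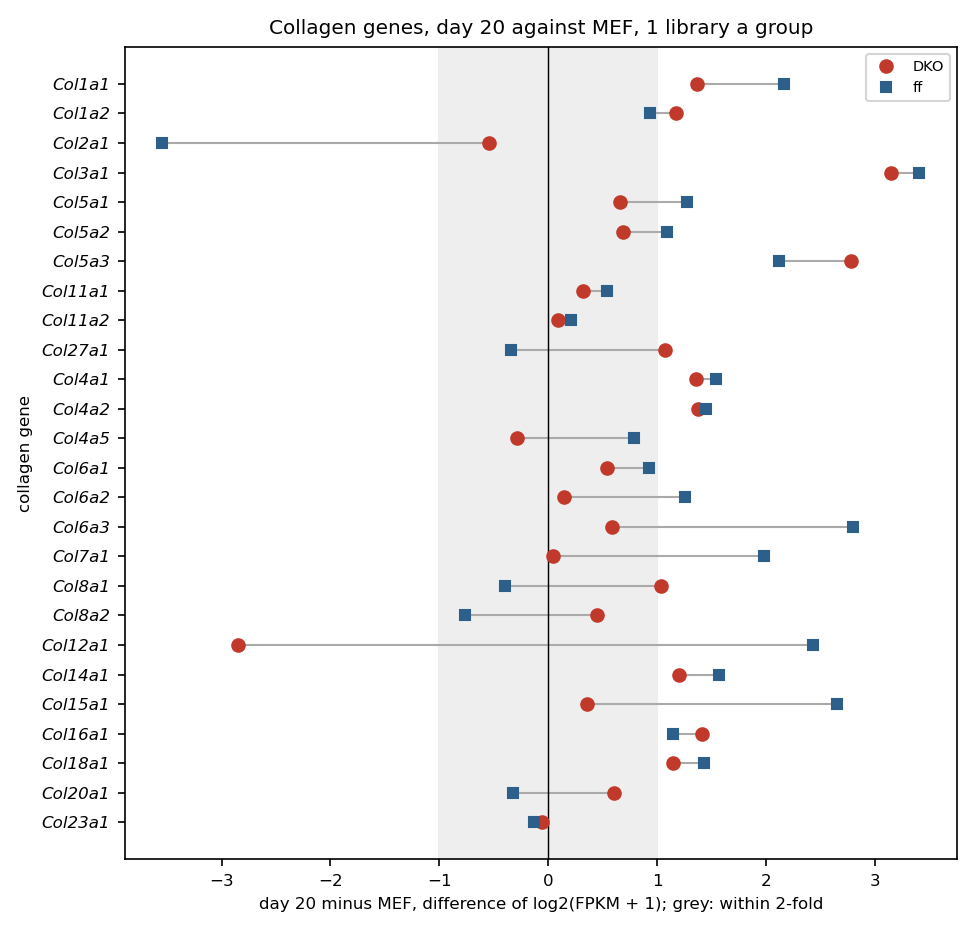
Difference of log2(FPKM + 1), D20 minus MEF, for the 26 compared collagen genes in DKO (circles) and f/f cells (squares), 1 library per group; the grey band is within 2-fold. Col3a1 lies at 3.15 in DKO and 3.41 in f/f cells, and Col12a1 at -2.85 in DKO and 2.43 in f/f cells.

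Col3a1 had the largest increase among the members on the log2(FPKM + 1) scale in both genotypes, with a ratio of FPKM of 8.92-fold in DKO cells (8.86 to 8.98) and 10.7-fold in f/f cells (10.6 to 10.7). Col4a1 was 2.62-fold higher at D20 in DKO and 2.97-fold in f/f cells, and Col4a2 2.64-fold in DKO and 2.78-fold in f/f cells. Col1a1 was 2.59-fold higher in DKO and 4.51-fold in f/f cells, and Col1a2 2.26-fold in DKO and 1.92-fold in f/f cells. Col6a3 was 1.52-fold higher in DKO and 7.23-fold in f/f cells. The member past 2-fold lower was Col12a1 in DKO cells (ratio 0.138) and Col2a1 in f/f cells (ratio 0.0409). Of the 15 fibroblast or feeder markers, 3 were past 2-fold higher and 2 lower in DKO cells, where 4.08% and 3.63% of all genes were, and 9 higher and 0 lower in f/f cells, where 6.31% and 5.66% were. Their part in these differences was not tested.

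Ratios of partner chains within a library do not depend on how that library was scaled, and they were formed after the levels had been seen. Col1a1 over Col1a2 was lower in DKO than in f/f cells in 6 of 6 pairs of libraries of the same stage and replicate. It was 1.37 and 1.1 in DKO ESC against 1.93 and 1.24 in f/f ESC, and 1.44 and 1.04 in DKO EB against 1.99 and 2.23 in f/f EB. In fibroblasts it was 0.207 in DKO MEF against 0.969 in f/f MEF, and 0.237 in DKO D20 against 2.28 in f/f D20. The gap was thus wider in fibroblasts than in ESC. For collagen V, Col5a1 over Col5a2 was 2.33 and 1.94 in DKO EB against 10.9 and 9.14 in f/f EB, and 0.237 in DKO D20 against 0.657 in f/f D20. It was 0.242 in DKO MEF against 0.578 in f/f MEF, and 1.82 and 1 in DKO ESC against 3.09 and 0.954 in f/f ESC, so that the replicate 2 pair of ESC ran the other way and 5 of 6 pairs were lower in DKO. Col4a1 over Col4a2 stayed between 0.835 and 1.72 in all 12 libraries and was lower in DKO in 4 of 6 pairs. Col6a1 over Col6a2 was lower in DKO in 5 of 6 pairs and Col9a2 over Col9a3 in 2 of 6. A count of 5 of 6 was thus not particular to collagen V. No share over other gene pairs is given for these counts.

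**Figure D5:**
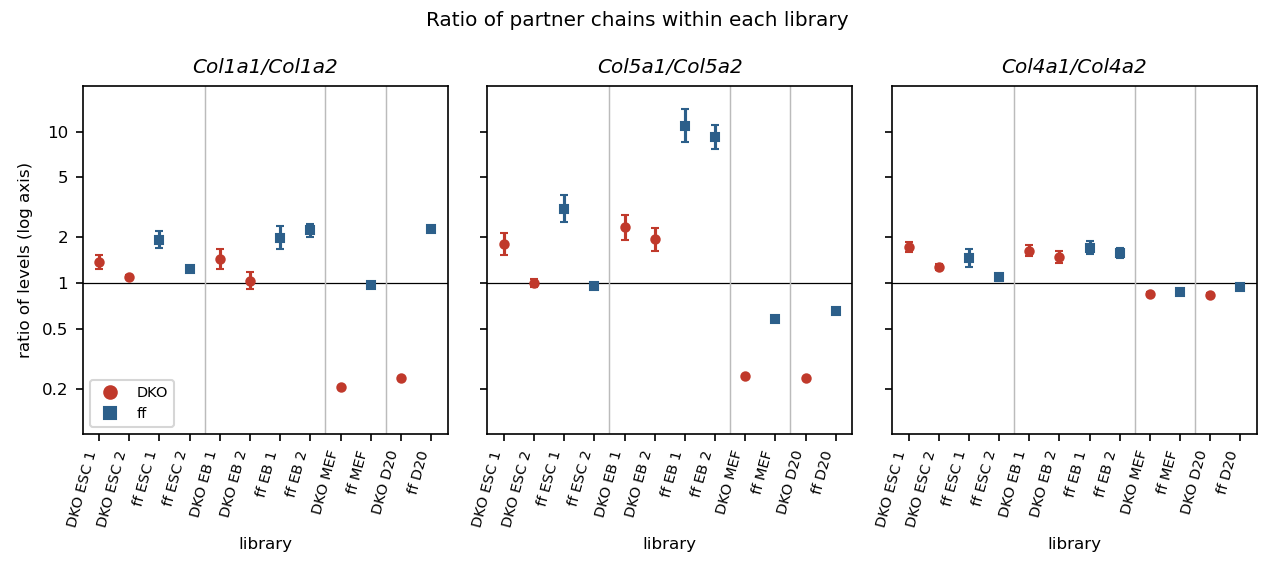
Ratio of partner chains (log axis) in each of the 12 libraries for collagens I, V and IV, DKO as circles and f/f as squares, with a 95% interval of counting error. Col1a1 over Col1a2 is lower in DKO within each pair of libraries, and Col4a1 over Col4a2 stays between 0.835 and 1.72.

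Across the 6 pairs of libraries, 24 members averaged 1 or more, and 4 of these (Col1a1, Col2a1, Col5a1 and Col18a1) were lower in DKO in every pair, where 5.92% of all genes were. Another 2 (Col4a5 and Col20a1) were higher in every pair, where 7.20% of all genes were. Col20a1 reached this mean through its MEF and D20 levels and did not pass the filter of the ESC and EB test. Its replicate 2 pair of ESC was level, at 0.344 FPKM in DKO against 0.332 FPKM in f/f (31 against 30 reads). These counts use direction alone, and the size of the differences varied, with Col5a1 in ESC at -0.13 ± 0.37. In the replicate 1 pair of ESC, Col1a1 was nearly level, at 7.78 RPKM in DKO against 7.82 RPKM in f/f. Col2a1 was nearly level there too, at 1.39 against 1.46 RPKM (141 against 138 reads).

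The enzymes and factors that make collagen were read from 6 lists of 63 genes, of which 48 were tested in ESC and EB. Some of the 48 were far apart between replicates, so what was counted may differ. Mia2 stood at 16.3 to 17.2 RPKM in replicate 1 and at 0 FPKM in replicate 2. Leprel2 (also named P3h3), called below, stood at 0.929 to 1.99 RPKM in replicate 1 and 21.9 to 35.9 FPKM in replicate 2. In ESC, 5 passed as higher and 1 as lower in DKO, where 1.57% of all genes passed as higher and 2.67% as lower, with a median of 0.18 beside 0.02 over all genes. All but Twist1 and Adamts14 belonged to the 18 genes of hydroxylation and folding. Fkbp10, a prolyl isomerase of the endoplasmic reticulum, stood at 26.5 and 31.6 in DKO ESC against 8.13 and 13.7 in f/f ESC (1.37 ± 0.18, limma adjusted p = 0.0181). Plod2, a lysyl hydroxylase, stood at 21.0 and 18.4 in DKO ESC against 12.4 and 10.6 in f/f ESC (0.73 ± 0.12, limma adjusted p = 0.0339). Fkbp14 was at 0.84 ± 0.16, Leprel4 (also named P3h4) at 1.02 ± 0.17 and the transcription factor Twist1 at 1.34 ± 0.27. Adamts14, which cleaves procollagen ends, was lower in DKO ESC, at 1.39 and 1.98 against 4.28 and 6.42 in f/f ESC (limma adjusted p = 0.0218). Each of these 6 calls was lost when any one of the 4 ESC libraries was left out, with adjusted p from 0.107 to 0.255, and those of Fkbp14, Leprel4, Plod2 and Twist1 also without either f/f EB library (0.0593 to 0.0944) and that of Fkbp14 without DKO EB replicate 1 (0.0505). Other settings ended calls too: of 16 alternatives, 12 lost the call of Twist1, 10 that of Fkbp14, 8 that of Leprel4, 8 that of Plod2, 6 that of Adamts14 and 5 that of Fkbp10.

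In EB, 0 of the 48 passed as higher and 2 as lower in DKO, where 0.826% of all genes passed as higher and 3.61% as lower. Serpinh1, the chaperone HSP47 that collagen chains need to fold, stood at 21.8 and 36.8 in DKO EB against 64.1 and 103 in f/f EB, and at 36.7 and 71.1 in DKO ESC against 23.9 and 59.7 in f/f ESC. Its difference in EB was -1.49 ± 0.16 (limma adjusted p = 0.0126, from 7.93e-13 to 0.458 over 16 alternatives), and the DKO libraries lay below their f/f partners in EB and above them in ESC. Ddr1, a collagen receptor kinase of epithelia, stood at 7.62 and 12.9 in DKO EB against 34.9 and 41.5 in f/f EB (limma adjusted p = 0.0458). The call of Serpinh1 was lost without DKO EB replicate 1 (0.0508) and without f/f EB replicate 1 or 2 (0.0837 and 0.0867). That of Ddr1 was lost without DKO EB replicate 1 (0.178), f/f EB replicate 1 or 2 (0.151 and 0.28) and f/f ESC replicate 1 or 2 (0.0727 and 0.0707). Of 16 alternatives, 11 lost the call of Ddr1, edgeR among them (0.068), and 4 that of Serpinh1. In f/f cells 8 list genes passed as higher and 2 as lower in EB than in ESC, where 8.13% and 3.86% of all genes did. Pxdn, the peroxidase that cross-links collagen IV, stood at 28.8 and 35.5 in f/f EB against 7.12 and 8.46 in f/f ESC (1.91 ± 0.17, limma adjusted p = 0.0135). The others higher were Serpinh1, Fkbp10, Leprel1, Leprel2, Ppib, Smad3 and Smad4, and those lower were Pcolce2 and Adamts14; Ppib and Smad4, outside the 8 largest differences, are named after their values were seen. In DKO cells limma called 0 of 48 between EB and ESC, where 0.826% of all genes were called, and 12 had an unadjusted p under 0.05, against 19.2% of all genes. The 10 calls between f/f EB and f/f ESC were each lost without either f/f ESC or either f/f EB library, with adjusted p from 0.0596 to 0.289. Those of Fkbp10, Leprel2, Pcolce2, Ppib and Smad4 were also lost without either DKO ESC library (0.0508 to 0.0863), those of Fkbp10 and Pcolce2 without either DKO EB library (0.0524 to 0.0566) and that of Leprel2 without DKO EB replicate 2 (0.0537). Of 16 alternatives, 14 lost the call of Leprel2, 12 that of Smad4, 11 that of Ppib, 10 that of Fkbp10 and 10 that of Pcolce2, and for each of the other 5 genes 5 or 6 did.

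In fibroblasts 53 list genes were compared. Between DKO and f/f MEF, 1 was past 2-fold higher (Cebpb, 84.6 FPKM in DKO against 24.4 FPKM in f/f) and 10 were lower, where 3.72% of all genes were higher and 5.17% lower. The largest differences among these 10 were Tll1, a procollagen C-proteinase, at 0.536 FPKM in DKO against 12.6 FPKM in f/f, and Scx, a factor of tendon cells, at 1.24 FPKM in DKO against 18.1 FPKM in f/f. Also lower were Itga11, a collagen-binding integrin chain, at 24.2 FPKM in DKO against 82.7 FPKM in f/f, and the cross-linking enzyme Loxl2 at 29.8 FPKM in DKO against 94.4 FPKM in f/f. At D20, 5 were higher and 8 lower in DKO, where 8.26% and 10.4% of all genes were. Adamts2, the main procollagen N-proteinase, stood at 2.84 FPKM in DKO D20 against 37.7 FPKM in f/f D20, Scx at 0.639 against 16.3 FPKM, Loxl4 at 1.53 against 20.3 FPKM and Plod1 at 21.0 against 129 FPKM. Among the 5 higher in DKO D20 were Leprel1 (P3h2), at 28.4 FPKM in DKO against 2.26 FPKM in f/f, and Adamts14, at 26.7 FPKM in DKO against 6.19 FPKM in f/f. Runx2, a factor of bone cells, stood at 25.9 FPKM in DKO D20 against 5.63 FPKM in f/f D20. Between D20 and MEF, 7 list genes were higher and 2 lower in DKO cells, where 4.08% and 3.63% of all genes were, and 8 higher and 2 lower in f/f cells, where 6.31% and 5.66% were.

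Over the 8 libraries deposited as FPKM, the genes most like Col1a1 by Pearson r of log2(FPKM + 1) were Zcchc24 (0.989), Fcgrt (0.988), Pdgfra (0.987), Plat (0.986) and Ephx1 (0.982). Those most like Col4a1 were Col4a2 (0.974), Gm13315 (0.965), F2r (0.952), Ypel5 (0.944) and Ndufb11 (0.939). These 8 libraries share stages and genotypes, so the values are a description and carry no p. Among the other tested members, r with Col1a1 was 0.967 for Col6a3, 0.961 for Col5a1 and 0.935 for Col1a2, against -0.49 for Col18a1 and -0.86 for Col9a2, which were higher in ESC and EB than in fibroblasts.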

How the data were processed

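The values come from 12 poly(A) RNA libraries; 24 ChIP or input samples of the series are not analysed here. The authors deposited whole read counts and RPKM values per RefSeq transcript for 4 libraries and FPKM values per Entrez gene for 8, per the file headers. Tools and build named in the submitters' processing notes are mm9, bedtools 2.16, SICER 1.1 and CASAVA 1.8.2. Aligner, annotation release and strand setting were not given in sources used here, which leaves overlapping and antisense genes uncertain. No label says that replicates came from separate cultures; the p-values then reflect spread among these samples alone, and that may be technical.

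RefSeq accessions paired transcripts with genes (GRCm38.p6 table, names only). All 44 collagens were found, 43 of them with a transcript (50 transcripts), and a gene was represented by its transcript of most reads. Whole reads behind FPKM were recovered from the steps of low genes (90.7% to 92.39% whole within 0.02 reads). In the MEF and D20 libraries the divisor behind the deposited FPKM was proportional to the median-of-ratios size factor over 15288 genes, so it is no read total; reads counted in genes are given as depth.

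ESC and EB were tested by limma 3.58.1 (R 4.3.3, empirical Bayes with trend, two-sided) on log2(value + 1) with 4 groups and a batch term (replicate 1 or 2), over genes with a mean of at least 1. This left 3 residual beside 3.27 prior degrees of freedom, and p was adjusted by Benjamini-Hochberg over 12466 genes. Fold changes on this scale understate those of low genes. Libraries of the same batch deviated together (correlations 0.864 to 0.954). The contrasts share libraries. Alternatives included edgeR 4.0.16 and DESeq2 1.42.0 on whole reads, and the limma script was tested on simulated data. Exact binomial intervals on ratios of reads cover counting error only. Named were members called in any contrast or of at least 10 in any library, and list genes called or past 2-fold, at most 8 per comparison. Members, lists and tests were chosen with earlier results of these data known.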

Additional observations from a re-analysis of the deposited data

Results flagged for a closer look

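Col12a1 differed between stages in the direction of its genotype difference. On the log2(FPKM + 1) scale, DKO minus f/f was -2.761 at D20 and 2.518 in MEF, with 1 library per group. The change between the stages was not tested, and the libraries allow no test of it.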

How the results depend on the processing

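Between DKO and f/f, leaving out 1 library gave 0 to 1 called collagen in ESC and 0 to 0 in EB, and DESeq2 called 1 in ESC and 2 in EB; no other alternative called any. Between EB and ESC in DKO cells, a pseudocount of 0.1 called 1, edgeR 1 and DESeq2 6, and leaving out 1 library gave 0 to 1. In f/f cells, where 1 was called, the fit without a filter called 0, the fit without the batch block 0, summed transcripts 2, edgeR 3 and DESeq2 9, and leaving out 1 library gave 0 to 3. The interaction called 0 in all 16 alternatives. Of the 19 limma calls on single genes in the text (18 on list genes and that of Col3a1), the fit without the block lost 19 and the fit without a filter lost 13. Leaving out either f/f ESC library lost 18 and either f/f EB library 17, and no called difference changed sign. The batch term pairs libraries of the same replicate number, and the fit without this replicate block called 0 collagens in each contrast. In MEF and D20, counts past 2-fold stayed within 1.5 times, and median-of-ratios scaling changes nothing there by construction. Total-count scaling, added after seeing the data, left 10 past 2-fold between D20 and MEF in DKO cells, Col8a1 and Col27a1 dropping below. Depth limits members under 1 FPKM, many of which rest on few reads, and the single library per fibroblast group leaves their differences without a replicate error.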
